A study of Mus musculus with 12 samples.

Results

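Cluster 8 is one of 8 projection neuron (PN) clusters of the embryonic mouse cortex and was named PN 1 by the study. Its members were all nuclei that the authors had filed under Cluster 8, which came to 3241 of the 50550 nuclei in 25 clusters and of the 16036 nuclei in the PN clusters. They came from 11 C57BL/6J embryos of embryonic day (E) 14, whose frozen cortices were profiled one by one with droplet-based single nucleus RNA sequencing (snRNAseq). The study asked how ethanol given before birth alters gene expression in each cell type of the forming cortex. The saline group held 5 embryos, S1-1 and S1-2 of dam S1 and S2-1, S2-2 and S2-4 of dam S2. The EtOH group held 6 embryos, E1-1 and E1-2 of dam E1 and E2-1 to E2-4 of dam E2. Batch 1 held the litters of S1 and E1, and batch 2 held those of S2 and E2. EtOH dams received 2.5 g/kg ethanol, as a 25% (v/v) solution in saline, by intraperitoneal injection once a day for 6 days from E8 to E13, and saline dams received saline. No group carried a mutation or transgene. Each treatment rests on 2 litters, so effects of a dam and of the treatment cannot be fully told apart.

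Cortical PNs are the glutamatergic neurons that send axons to other cortical areas or out of the cortex. They are born from radial glia and intermediate progenitors, and transcription factors that they keep after the last division sort them into classes. Fezf2 and Bcl11b mark neurons that project below the cortex, and Neurod2 is a basic helix-loop-helix factor of PNs in general. Fam19a1 and Fam19a2, now named Tafa1 and Tafa2, encode small secreted proteins that resemble chemokines and are made mainly in the brain. Tfap2d encodes a transcription factor of the AP-2 family, and Adgrl3 encodes latrophilin 3, an adhesion receptor of neurons that binds teneurins and FLRT proteins.

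The sequences shown first are the 250 bases before the most upstream RefSeq start (GRCm38.p6) of Tfap2d, the gene with the largest ratio to the next cluster, and of the label markers Fam19a2 and Neurod2, shown because they name the cluster. Capitals mark the letters CAGATG on either strand (CATCTG on the other), an E-box of the kind that NeuroD factors bind. The stretches are chr1:19102772-19103021 on the plus strand for Tfap2d, chr10:123263826-123264075 on the plus strand for Fam19a2 and chr11:98329646-98329895 on the minus strand for Neurod2, each written 5′ to 3′.
Tfap2d: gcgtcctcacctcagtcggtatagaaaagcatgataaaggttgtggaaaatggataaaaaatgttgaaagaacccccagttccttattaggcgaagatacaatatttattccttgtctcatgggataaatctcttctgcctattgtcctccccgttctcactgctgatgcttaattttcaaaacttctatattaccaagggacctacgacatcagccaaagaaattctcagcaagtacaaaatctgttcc
Fam19a2: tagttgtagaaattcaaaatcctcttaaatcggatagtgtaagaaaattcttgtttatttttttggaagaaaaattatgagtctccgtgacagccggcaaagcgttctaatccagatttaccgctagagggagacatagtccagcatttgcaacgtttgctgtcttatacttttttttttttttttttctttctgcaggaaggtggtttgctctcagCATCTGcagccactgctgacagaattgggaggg
Neurod2: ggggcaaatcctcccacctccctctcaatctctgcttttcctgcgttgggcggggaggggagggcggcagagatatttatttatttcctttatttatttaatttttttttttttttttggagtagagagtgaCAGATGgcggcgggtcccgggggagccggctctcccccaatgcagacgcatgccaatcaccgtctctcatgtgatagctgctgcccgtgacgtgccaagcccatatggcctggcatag
Fam19a2 and Neurod2 held 1 match each and Tfap2d and Fam19a1 held 0. In GENCODE M21 Fam19a2 starts at 123263996, before the RefSeq start used here, so its match lies inside that gene span. Of the 100 marker genes that the study lists for PN 1, 81 had such a stretch and 11 of those (13.6%) held a match, beside 9.33% of 8281 genes tested in Cluster 8 and 14.5% of all 27025 promoters. A match here is a match of letters and no evidence of binding.

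All 3 label markers were found in Cluster 8. Levels are given as CPM, the unique molecular identifiers (UMIs) of a gene per 1000000 UMIs of the cluster in an embryo, as mean ± SD over embryos with at least 10 nuclei of the cluster. Fam19a1 was at 3504 ± 810 CPM (n = 11), at rank 2 of the 25 clusters below the PN Cluster 25 at 9085 ± 2386 (n = 7), and at 28.9, 33.1 and 35.8 in the large PN Clusters 1, 4 and 9. Fam19a2 was at 2167 ± 704 CPM, at rank 1, with Cluster 19 at 1774 ± 277, a gap smaller than the SD of Cluster 8 and larger than that of Cluster 19. Neurod2 was at 162 ± 42.5 CPM, at rank 3 below Cluster 9 at 294 ± 85.5 and Cluster 1 at 252 ± 75.3. Fam19a1 thus set Cluster 8 apart from the other large PN clusters, while Neurod2 did not.

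The gene that differed most from all other clusters was Tfap2d. Genes were ranked on the same nuclei that had been clustered, so these ranks describe the cluster and were not tested. Of 6096 genes with at least 20 CPM in Cluster 8, 65 were highest there of the 25 clusters and 4 were above 2 times the next cluster. Tfap2d was at 348 ± 81.0 CPM, with 211 to 480 in single embryos, and Cluster 9 followed at 61.8 ± 18.02, a ratio of 5.63. The lincRNA 4930467D21Rik was at 83.6 ± 42.1 CPM, a ratio of 3.66 to Cluster 22. Adgrl3 was at 8151 ± 527 CPM and 2.24 times Cluster 19, and Gm16054, an antisense transcript inside Adgrl3, was at 71.8 ± 19.5 and 2.28 times Cluster 22.

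**Figure D1:**
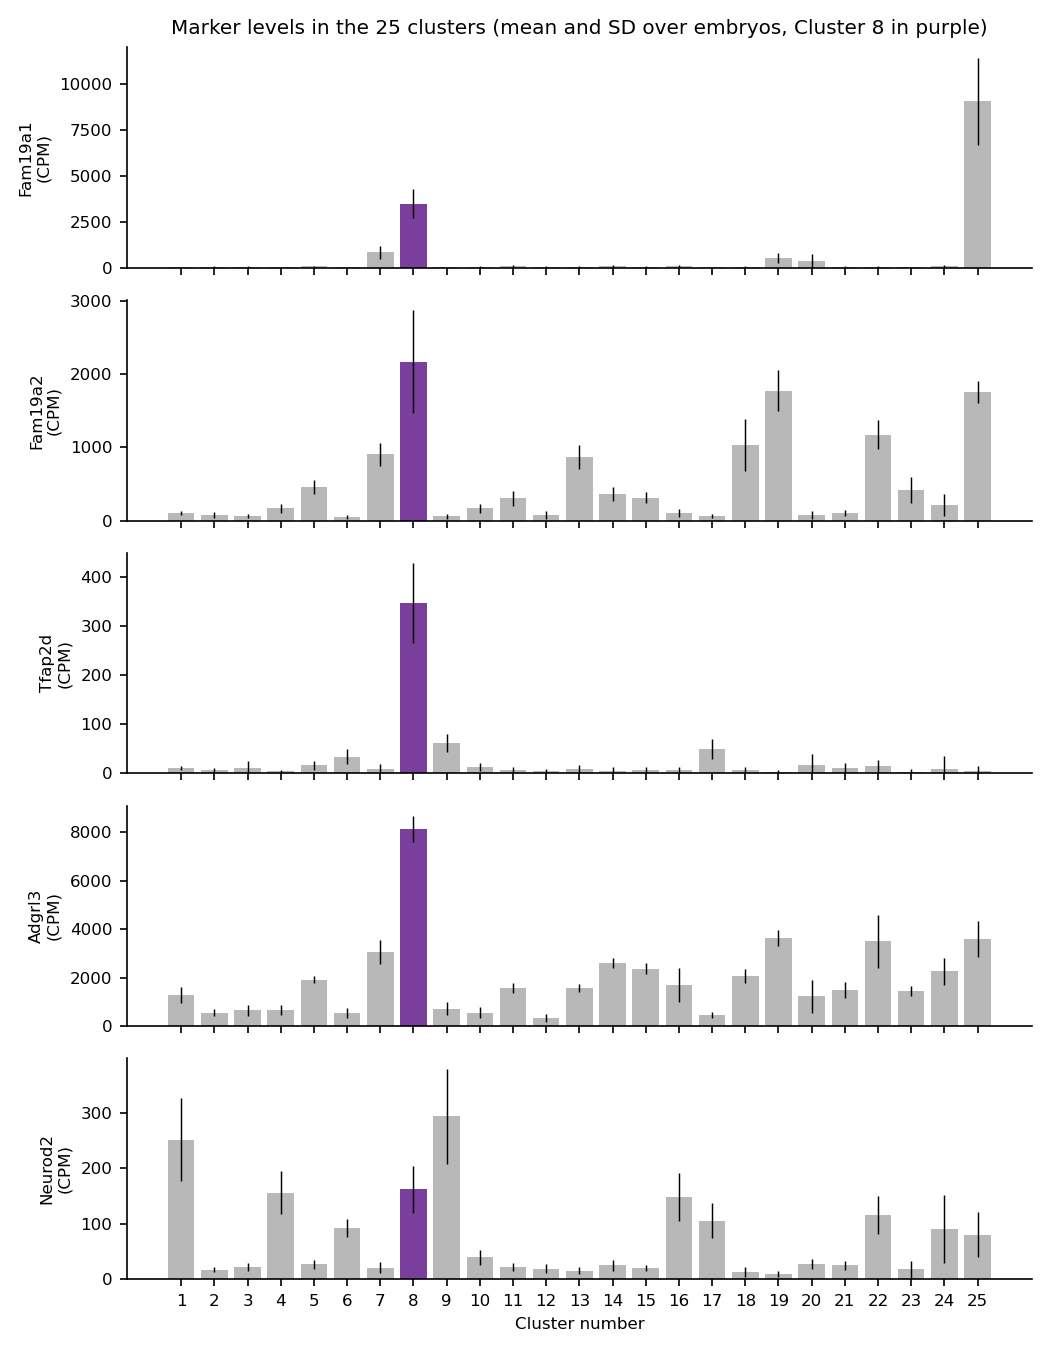
Mean CPM of Fam19a1, Fam19a2, Tfap2d, Adgrl3 and Neurod2 in each of the 25 clusters, with SD over embryos and Cluster 8 in purple. Tfap2d (348 CPM) and Adgrl3 (8151 CPM) stood above every other cluster by more than 2 times, Fam19a1 was exceeded by Cluster 25, and Neurod2 was exceeded by Clusters 1 and 9.

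The next 6 leading genes differed less. They were 1700025G04Rik at 654 ± 56.9 CPM (1.42 times Cluster 1), the lincRNA Gm35835 at 141 ± 11.3 (1.40 times Cluster 19), Pgm2l1, an enzyme of sugar phosphate metabolism, at 119 ± 5.28, Gm28153, the synaptic adhesion gene Il1rapl1 at 2600 ± 266, and Fam19a5 at 617 ± 82.0, a further member of the Fam19a family. Each of them was less than 1.5 times the next cluster. Of the study's PN 1 markers, which were chosen on these same nuclei, 99 of 100 were in the files, 18 were at rank 1 of 25, 62 were within rank 3 and the lowest was at rank 9. Plxna4, a semaphorin receptor subunit, was at 4435 ± 731 CPM below Cluster 9 at 5452 ± 412, and Ndst3, a heparan sulfate sulfotransferase, was at 676 ± 145 beside 652 ± 86.0 in Cluster 9. The gap was larger than either SD for Plxna4 and smaller than both for Ndst3.

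In GENCODE M21 on GRCm38, the assembly also called mm10, Tfap2d lies on chromosome 1 from 19103022 to 19166346 on the plus strand and Fam19a1 on chromosome 6 from 96113154 to 96657198 on the plus strand. Adgrl3 lies on chromosome 5 from 81020138 to 81825133 on the plus strand, and Gm16054 lies within it on the minus strand from 81791909 to 81798426. Such overlapping genes are uncertain here. The paper states that Cell Ranger was run at its default and recommended settings and does not itself name the use of the strand.

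Among class markers, Cluster 8 was low for the corticospinal factor. Fezf2 was at 11.4 ± 4.11, beside 77.7 ± 13.7 in Cluster 4. Bcl11b was at 737 ± 84.0 CPM, at rank 7 of the 8 PN clusters. Of 12 genes on the ventrolateral pallium list, 4 were at rank 1 of the 8 PN clusters, Tfap2d, Lmo3, Nr2f1 and Nr2f2, and the other 8 were at ranks 2 to 6. Lmo3, a LIM-only cofactor, was at rank 1 of 25 with 490 ± 64.4 CPM, close to Cluster 22 at 435 ± 121. The nuclear receptors Nr2f1 and Nr2f2, which pattern the caudal and lateral cortex, were at 325 ± 35.6 and 200 ± 62.3 CPM, each at rank 4 of 25. Adhesion and synaptic genes at rank 1 of 25 included Pcdh9 at 7910 ± 544 CPM, Syn3 at 837 ± 100.2 and Dner, a Notch ligand, at 754 ± 30.6.

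Gad2 and Top2a, markers of other cells, were found in Cluster 8 at about the share of a cell type that should lack them. To compare shares at one depth, nuclei were thinned to 2000 UMIs. Fam19a1 was then found in 53.7 ± 6.12% of Cluster 8 nuclei (n = 11), beside 24.1% of interneuron Cluster 7 and 5.32% of radial glia Cluster 2, and Tfap2d in 29.4 ± 6.30%, beside 1.32% and 0.817%. Gad2, an enzyme of GABA synthesis, was in 7.18 ± 3.94% of Cluster 8 nuclei, beside 50.7% of Cluster 7 and 6.68% of Cluster 2, which should lack it. By group it was in 9.94% of nuclei in saline and 4.89% in EtOH embryos. Top2a, a gene of dividing cells, was in 2.58 ± 1.32%, beside 2.75% and 59.9%, with 3.67% in saline and 1.67% in EtOH embryos. Eomes, a factor of intermediate progenitors, was in 2.08 ± 1.33% beside 0.940% of Cluster 7, and Hes5, a Notch target of radial glia, in 0.695 ± 0.751% beside 0.268%, so not every such marker lay at or below the share in Cluster 7. Without thinning, Fam19a1 was in 62.7%, 38.9% and 18.1% of nuclei of Clusters 8, 7 and 2, Tfap2d in 38.7%, 3.47% and 2.89%, Gad2 in 18.8%, 66.7% and 18.8% and Top2a in 7.33%, 7.79% and 76.2%, and the nuclei of these clusters differ in depth. Eomes was then in 6.3% and 5.53% of nuclei of Clusters 8 and 7 and Hes5 in 2.07% and 1.99%.

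Within Cluster 8, Fam19a1 varied strongly from nucleus to nucleus. The ratio of variance to mean of a gene over the thinned nuclei of an embryo, which is near 1 for counting noise, had a median of 1.06 over 8265 genes with at least 0.02 UMIs per nucleus. Dcc, the netrin receptor, led at 15.1, followed by the adhesion gene Lsamp at 14.3 and Fam19a1 at 13.9, with 12.1 to 15.9 in single embryos. Il1rapl2, Kirrel3, Pcdh9, Sgcz, Pcdh11x, Lrp1b and Ptprd followed, down to 10.5. The ratio of Fam19a1 was thus similar in every embryo, while that of Pcdh11x ranged from 1.54 to 19.6. The ratio tends to rise with the level of a gene, and it was not set against genes of like level. Means of these genes ran from 0.478 UMIs per thinned nucleus for Pcdh11x to 28.5 for Ptprd, with 6.19 for Fam19a1.

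The nuclei were therefore divided by their Fam19a1 UMIs, a division chosen after this ratio was seen and given as a description. Of 3227 nuclei with at least 2000 UMIs, 1475 had no Fam19a1 UMI and 1201 had 5 or more. Nuclei with 5 or more were 41.9%, 36.2%, 23.2%, 27.8% and 41.8% of those in S1-1, S1-2, S2-1, S2-2 and S2-4. In the EtOH embryos they were 29.8% to 46.2%, so the groups overlapped. Embryos of dam S2 spanned nearly the whole saline range.

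Nuclei rich in Fam19a1 were also rich in Fam19a2. Genes were compared if the class with more of them reached a mean of 0.05 UMIs per nucleus. A low gene could thus pass through the class where it was high, which favours large ratios. Of the 5759 genes compared, 188 were higher with Fam19a1 in all 11 embryos and 258 were lower in all 11. Fam19a2 was at 6.94 ± 2.18 UMIs per nucleus with Fam19a1 and 1.52 ± 0.503 without, a ratio of 4.58. Hs6st3, a heparan sulfate sulfotransferase, had a ratio of 6.58 and Slit3, a ligand of Robo receptors, had 5.86. The glutamate receptor genes Grik1 and Grin2a had ratios of 4.36 and 4.30, the receptor scaffold Grip2 had 8.20, and Lmo3 had 2.25. Each of these genes was higher in 11 of 11 embryos. Grip2 was low, at 0.106 ± 0.0540 UMIs per nucleus with Fam19a1 and 0.0129 ± 0.00888 without.

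Nuclei without Fam19a1 held more of another set. The secreted semaphorin Sema3c was at 0.764 ± 0.166 UMIs per nucleus without Fam19a1 and 0.0752 ± 0.0402 with it. The transcription factor Ebf1 was at 1.28 ± 0.285 and 0.195 ± 0.167, and the thyroid hormone receptor gene Thrb at 0.149 ± 0.0577 and 0.0157 ± 0.0138. Cux2, a homeobox gene of upper layers, was at 1.40 ± 0.219 without and 0.626 ± 0.166 with Fam19a1. Tfap2d leaned to the same side in 10 of 11 embryos, at 1.15 ± 0.291 and 0.603 ± 0.392. Nr2f2 and Bcl11b differed little, with ratios of 1.11 and 0.874 and 7 of 11 embryos on one side.

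**Figure D2:**
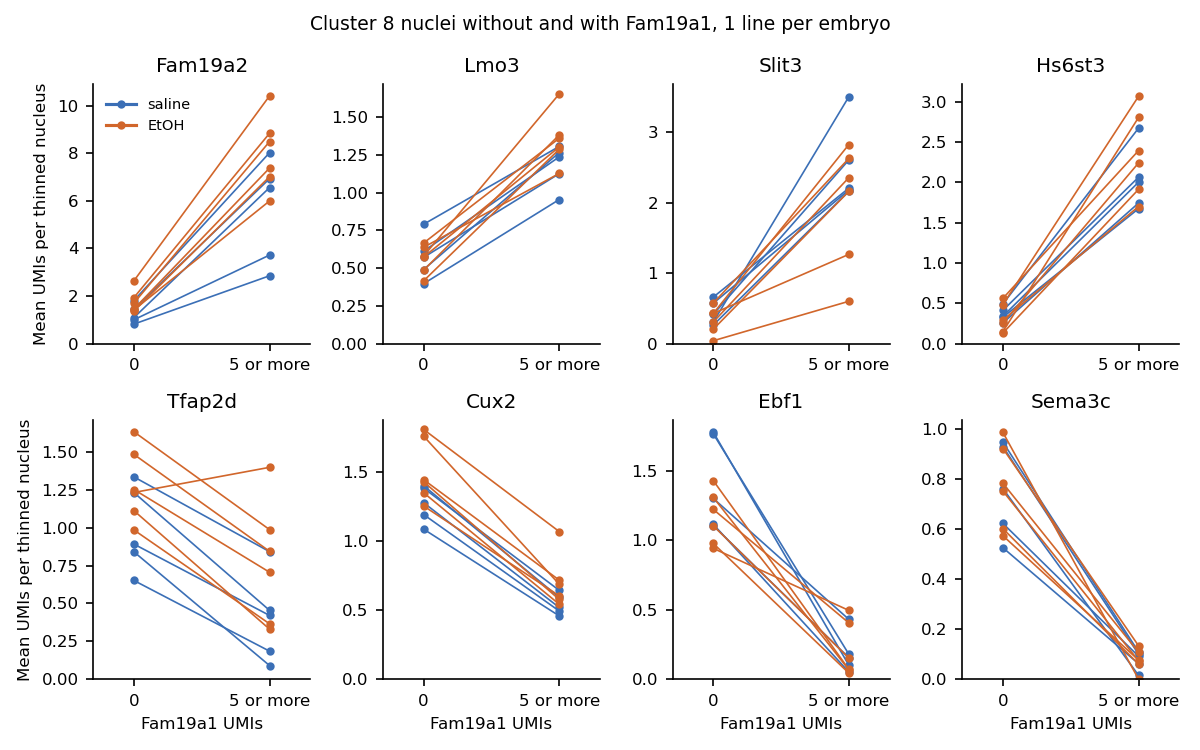
Mean UMIs per thinned nucleus of 8 genes in Cluster 8 nuclei with 0 Fam19a1 UMIs (left) and 5 or more (right), 1 line per embryo, saline in blue and EtOH in orange. Fam19a2, Lmo3, Slit3 and Hs6st3 are higher on the right and Cux2, Ebf1 and Sema3c are lower on the right in all 11 embryos, and Tfap2d is lower on the right in 10 of 11.

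Pairs of genes met in single nuclei along the same lines. Fam19a1 and Fam19a2 were found together in 1327 nuclei, beside 1027 if independent within embryos, with more than that in 11 of 11 embryos. Fam19a1 and Tfap2d met in 428 nuclei beside 518, with more in 0 of 11 embryos. Bcl11b and Tfap2d met in 659 nuclei beside 622, with more in 10 of 11 embryos. Of the ventrolateral pallium genes, Tfap2d and Lmo3 met in 302 nuclei beside 344, with more in 2 of 11 embryos. Tfap2d and Nr2f2 met in 221 beside 228, with more in 6 of 11. The leading marker Tfap2d and the label marker Fam19a1 thus met in fewer nuclei than their separate shares within embryos would give.

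Before the treatments are compared, 2 libraries need to be set apart. On the first principal component of the summed Cluster 8 counts, which held 31.6% of the variance, S1-1, S1-2, S2-1 and S2-2 lay between 19.1 and 25.6 and the EtOH embryos between -27.7 and -6.45. The library labelled saline S2-4 lay at -7.54, among the EtOH embryos. The chi-square per gene between the Cluster 8 counts of pairs of libraries is larger for less similar libraries and for libraries with more UMIs. It was 1.77 to 2.92 between S2-4 and the EtOH embryos and 5.16 to 6.58 between S2-4 and the other saline embryos. Between the other 4 saline embryos and the EtOH embryos it was 4.31 to 6.40. Among those 4 it was 4.28 to 6.18 between litters, so the distance of S2-4 to the S1 litter, 6.41 and 5.71, was near that range. Within litters it was 2.51 between S1-1 and S1-2 and 2.75 between S2-1 and S2-2, beside 6.58 and 5.16 between S2-4 and its littermates S2-1 and S2-2. By these values S2-4 lay nearer to the EtOH embryos than to its labelled group. Its depth and its share of nuclei with markers of other cells, given below, also lay within or next to the EtOH range. Whether its label, its depth or RNA of other cells lies behind this was not tested, so its group is in doubt. It is kept as labelled below, group means, folds and adjusted p-values include it as saline unless stated, and counts of calls are also given without it. E1-1 had the fewest Cluster 8 UMIs, 729537 where S1-1 had the most at 5978371, and stood alone on the second component at 37.1. Any pair of libraries shared at most 18 barcodes, and at most 1 within Cluster 8. In no pair did the shared barcodes pass 0.384% of the smaller library.

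**Figure D3:**
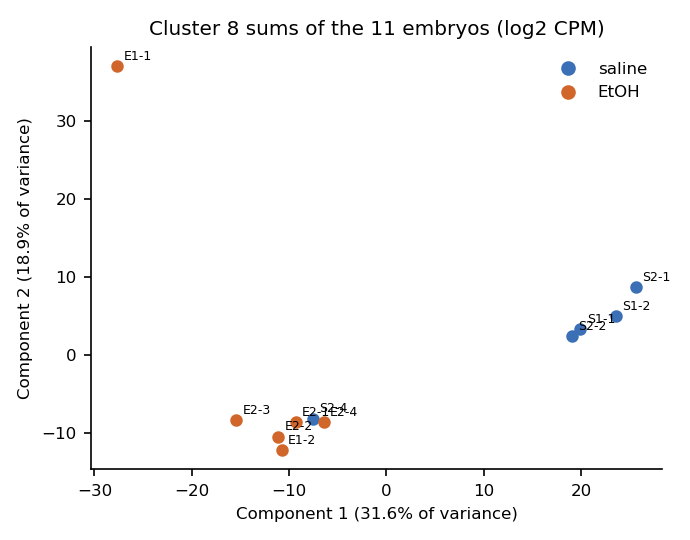
The 11 embryos on the first and second principal component of log2 CPM in Cluster 8 (31.6% and 18.9% of the variance), saline in blue and EtOH in orange. The saline embryos other than S2-4 lie on the right, S2-4 lies with the EtOH embryos, and E1-1 lies apart at 37.1 on the second component.

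The share of Cluster 8 among nuclei did not differ past the threshold. It was 6.90%, 6.05%, 4.70%, 5.43% and 6.56% in S1-1, S1-2, S2-1, S2-2 and S2-4, and 5.31% to 8.55% with a median of 7.61% in the EtOH embryos. The groups overlapped, with 4 of 6 EtOH embryos above all saline embryos. Means were 5.93 ± 0.881% (n = 5) and 7.15 ± 1.33% (n = 6), a difference of 1.22 percentage points (two-sided exact permutation test, p = 0.115, adjusted p = 0.758 over 25 clusters). The smallest p that 462 splits of the embryos allow is 0.00433. Without E1-1 the difference was 1.58 (exact permutation p = 0.0397, not adjusted), and without S2-4 it was 1.37 (exact permutation p = 0.110). Of PN nuclei alone, Cluster 8 made up 20.9 ± 2.86% in saline and 19.6 ± 3.03% in EtOH embryos (exact permutation p = 0.515).

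Cluster 8 nuclei of EtOH embryos held fewer UMIs, as did nuclei of other PN clusters and of a radial glia and an interneuron cluster. The median per nucleus was 9918, 9956, 8605, 8151 and 7171 in S1-1, S1-2, S2-1, S2-2 and S2-4, and 4065 to 7427 in the EtOH embryos. Of the saline embryos only S2-4 fell within the EtOH range. Means were 8760 ± 1193 (n = 5) and 6505 ± 1277 (n = 6), a difference of -2255 (exact permutation p = 0.00866). Within batches the difference was -2792 (exact permutation p = 0.0190), with means of 9937 and 5142 in batch 1 and 7976 and 7186 in batch 2. Without S2-4 it was -2652 (exact permutation p = 0.00476). In Cluster 1 the medians were 6137 to 8665 in saline and 3987.5 to 6463 in EtOH embryos, in Cluster 4 8492 to 12753 and 5239 to 9067, and in Cluster 9 5071 to 7754 and 3282 to 5368. In radial glia Cluster 2 they were 6651 to 9599.5 in saline and 4263.5 to 6944 in EtOH embryos. For interneuron Cluster 7 they were 8322.5 to 11624.5 and 5153 to 9150. The lower depth was thus not limited to Cluster 8 or to PNs.

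RNA of other cell types moved with the groups as well. Cluster 8 nuclei with a UMI of Gad1, Gad2, Hes1, Hes5, Top2a or Mki67 were 61.5%, 51.8%, 63.3%, 64.3% and 35.3% in the saline embryos and 16.2% to 31.7% in the EtOH embryos. At 2000 UMIs per nucleus they were 21.3%, 18.4%, 26.1%, 29.5% and 15.5% in the saline embryos and 6.45% to 15.4% in the EtOH embryos. The summed level of 12 interneuron markers was 1054 to 1836 CPM in saline and 761 to 1381 in EtOH embryos, that of 9 Cajal-Retzius markers 86.5 to 261 and 86.2 to 125, that of 12 radial glia markers 416 to 629 and 302 to 593, and that of 12 proliferation markers 144 to 232 and 74.3 to 144. In all of these lists every gene was detected, while Cplx3 of the subplate list and Neurog1 of the intermediate progenitor list had no UMI in Cluster 8. The 14 non-neural markers summed to 28.9 to 145 and 33.7 to 60.5 CPM. Depth and these levels move with the treatment in every result below, and their part in it was not tested.

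**Figure D4:**
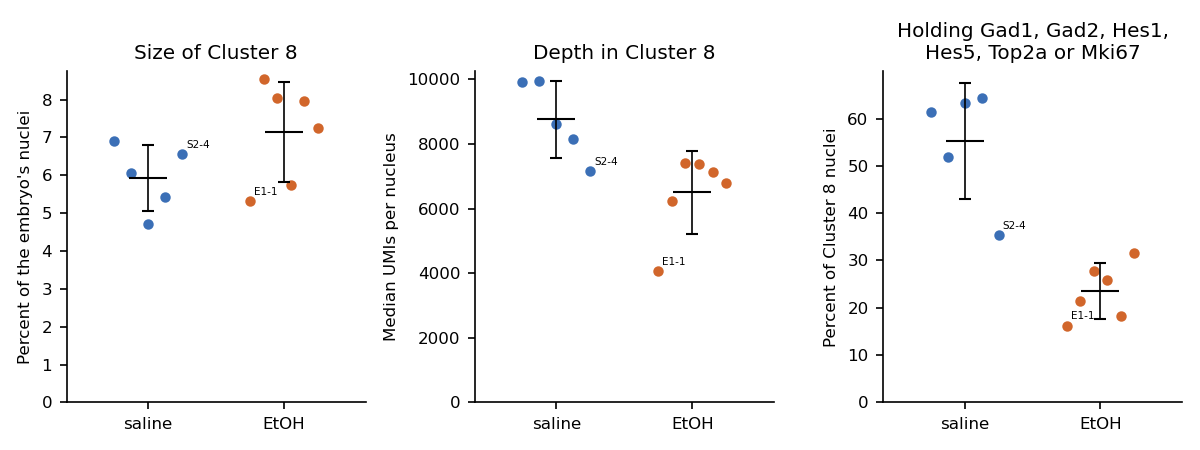
Percent of an embryo's nuclei in Cluster 8, median UMIs per Cluster 8 nucleus, and percent of Cluster 8 nuclei with a UMI of 6 genes of other cell types, 1 point per embryo with mean and SD. The groups overlap in the first panel, S2-4 (7171 UMIs) is the saline embryo within the EtOH range in the second, and the groups do not overlap in the third, where S2-4 (35.3%) is the saline embryo nearest to them.

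Between EtOH and saline embryos, 208 of 10748 genes tested in Cluster 8 (1.94%) were called, 115 higher (1.07%) and 93 lower (0.865%) after EtOH. A call needed an adjusted p under 0.05 (edgeR quasi-likelihood test on counts summed per embryo, Benjamini-Hochberg) and a fold of EtOH over saline under 0.8 or above the inverse of 0.8. The number depended on single embryos: it was 1412 without S2-4, 100 without E1-1, and 0 to 12 without any one of the others. With batch as a block it was 18, all among the 208. It was 296 in batch 1 alone, 57 of them among the 208, and 4 in batch 2 alone. All 208 were also called without S2-4, where 13% of 10845 genes were called, 9.08% higher and 3.94% lower. The 32 called genes named below were among them, each in the same direction and at an edgeR adjusted p of 0.0215 or less without S2-4. S2-4 was set apart on these same counts for lying with the EtOH embryos, so leaving it out tends to widen the group difference. Calls and p-values without S2-4, here and below, are therefore a description and no independent support.

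These 32 genes did not keep their calls in every other setting. With batch as a block 15 were called, in batch 1 alone 14, and in batch 2 alone 1, Snhg11. With nuclei thinned to 2000 UMIs, 27 could be tested and 7 were called, namely Gm12709, Atg16l2, Pianp, Sox11, Gli3, Diaph3 and Qk. Without nuclei that held a UMI of the 6 genes of other cells, 11 of 27 were called, and with counts summed per dam 2 were, Neil3 and Diaph3. Without S1-1, S2-1 or E2-2 none of the 32 was called by edgeR, as no gene was.

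The genes that the study lists as PN 1 markers had calls near the share over all genes. Of these 99, 0 were called, beside 1.94% of all genes tested, so the count does not set them apart, and their median log2 fold change of EtOH over saline was 0.02, beside 0.01 for all genes tested. Fam19a1 was at 4349, 3658, 2309, 2643 and 4106 CPM in the saline embryos and at 2225 to 4551 with a median of 3726 in the EtOH embryos. The groups overlapped fully (log2 fold change 0.02 ± 0.22 SE, edgeR adjusted p = 0.976). Fam19a2 was at 1789 ± 777 and 2483 ± 495 CPM (0.42 ± 0.31, edgeR adjusted p = 0.483), Tfap2d at 298 ± 76.8 and 389 ± 62.4 (edgeR adjusted p = 0.303) and Adgrl3 at 8282 ± 123 and 8041 ± 715 (edgeR adjusted p = 0.533). Neurod2 was nearest to a call, at 178, 208, 248.5, 208 and 132 CPM in the saline embryos and 122 to 159 in the EtOH embryos. In 4 of 5 saline embryos it lay above the EtOH range and in S2-4 within it (-0.59 ± 0.14, edgeR adjusted p = 0.0554). Without S2-4 Neurod2 was called lower (-0.71, edgeR adjusted p = 2.50e-06), and of the 99 PN 1 markers 4 were called, Sorbs2os, Plxna4os3, Kcnb2 and Gm16351, beside 13% of all genes.

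The lower gene with the smallest p was Cpeb4, whose protein binds the polyadenylation element of mRNAs and controls their translation. It was at 158, 159, 180, 163 and 161 CPM in the saline embryos and at 117 to 133 with a median of 127 in the EtOH embryos. Every saline embryo, S2-4 included, lay above every EtOH embryo (-0.42 ± 0.06, edgeR adjusted p = 0.0155). Over all genes tested, 2.15% showed no overlap between the groups, as did 41 of the 93 lower called genes. Calls and overlap come from the same values, so lack of overlap is no further support for a call. Gjc1, the gap junction protein connexin 45, was at 80.3, 82.9, 80.7, 89.4 and 70.3 CPM in saline and 47.9 to 62.7 in EtOH embryos, also without overlap (-0.57 ± 0.09, edgeR adjusted p = 0.0155). Neither was called with nuclei thinned (edgeR adjusted p = 0.168 for Cpeb4 and 0.183 for Gjc1) or with counts summed per dam (0.0837 and 0.0792). Usp25, a deubiquitinase, fell by 0.82 on the log2 scale, from 45.5 ± 7.32 to 25.4 ± 6.29 CPM. Neil3, a DNA glycosylase of dividing cells, had the largest change of the first 10, from 11.2 ± 2.88 to 2.87 ± 1.80 CPM (-1.84 ± 0.31, edgeR adjusted p = 0.0158). Its EtOH values rest on few counts, with 0.701 CPM in E2-3 and 1.37 in E1-1. Neil3 was not tested with nuclei thinned or without nuclei that held a UMI of the 6 genes of other cells.

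The rest of the first 10 lower genes fell by less than 0.6 on the log2 scale. They were Tmpo, a lamina-associated protein (-0.53), Chd7, a chromatin remodeler (-0.51), Trip11, a Golgi protein (-0.37), D130040H23Rik (-0.42), Zfp91 (-0.43) and Sox11. Sox11, a transcription factor of newborn neurons, was at 489, 453, 515, 511 and 334 CPM in the saline embryos and 299 to 362 in the EtOH embryos. S2-4 alone of the saline embryos lay in the EtOH range (-0.57 ± 0.10, edgeR adjusted p = 0.0401), while the other 5 genes did not overlap. With the batch block, Sox11 and Zfp91 were no longer called (edgeR adjusted p = 0.0505 and 0.0509).

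The higher genes were of another kind. Of 114 matched to GENCODE, 42 (36.8%) were annotated antisense, beside 4.70% of all genes tested, and 58 (50.9%) were protein coding, beside 92.0%. Of these 114, 87 (76.3%) overlapped a gene on the opposite strand, beside 51.5% of all genes tested and 46.2% of the lower genes. Their median level was 19.1 CPM, nearer to the 25.5 of all genes tested than the 64.8 of the lower genes was. S2-4 lay between the other saline embryos and the EtOH embryos in 111 of the 115 higher genes and nearer the EtOH embryos in 92, and in 75 and 41 of the 93 lower genes. Over all 10748 genes tested it lay between them in 3772 and nearer the EtOH embryos in 6829.

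Gm12709, antisense to Sgip1, a gene of endocytosis, had the smallest p of the higher genes. It was at 15.4, 14.9, 15.8, 15.7 and 26.3 CPM in the saline embryos and at 24.7 to 40.1 with a median of 35.6 in the EtOH embryos. S2-4 was the only saline embryo in the EtOH range (0.96 ± 0.16, edgeR adjusted p = 0.0158). 2310040G07Rik, antisense to Ppat, an enzyme of purine synthesis, rose from 5.44 ± 1.68 to 13.4 ± 1.05 CPM without overlap. Gm16054, at rank 1 of 25 in Cluster 8, was at 49.5, 42.9, 53.3, 60.2 and 72.7 CPM in the saline embryos and 64.4 to 102 in the EtOH embryos, with S2-4 in the EtOH range (0.60 ± 0.12, edgeR adjusted p = 0.0401). Adgrl3, in which it lies, had a log2 fold change of -0.09 ± 0.07.

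The other antisense genes of the first 10 were Gm43000 at Cacna2d1, a calcium channel subunit (1.31 on the log2 scale), Grip1os2 at Grip1, a glutamate receptor scaffold (0.89), and Gm28375 at Dis3l2, an exoribonuclease (0.78). The 4 coding genes were Arpc1b, a subunit of the actin-nucleating Arp2/3 complex, Kcnrg, Atg16l2 and Pianp. Arpc1b was at 8.36, 8.58, 7.88, 12.2 and 15.7 CPM in the saline embryos and 17.8 to 28.9 in the EtOH embryos, with S2-4 nearest to them (1.02 ± 0.20, edgeR adjusted p = 0.0391). Kcnrg, Atg16l2 and Pianp rose by 0.77, 0.70 and 0.80, and of the 4 only Pianp overlapped no gene on the other strand. With the batch block, Gm43000, Kcnrg, Atg16l2 and Pianp were no longer called, each at an edgeR adjusted p of 0.0509.

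**Figure D5:**
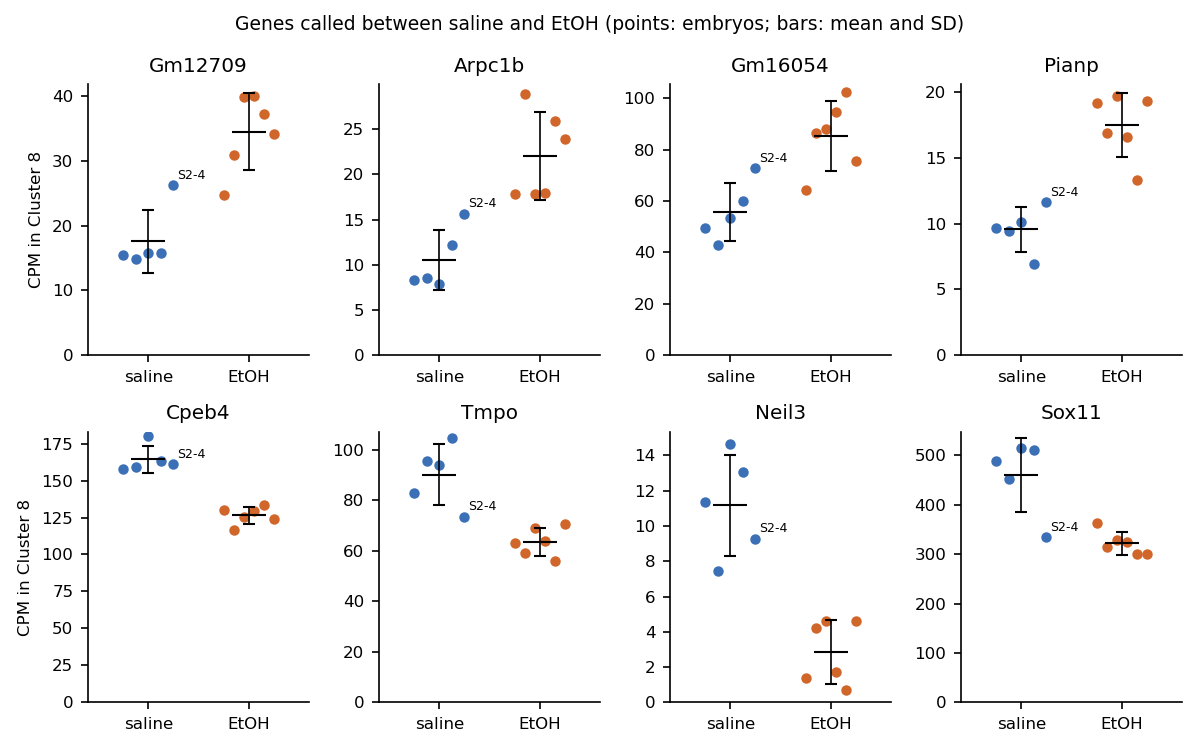
CPM in Cluster 8 of 8 genes called between the treatments, 1 point per embryo with mean and SD. In the upper row (Gm12709, Arpc1b, Gm16054, Pianp) the EtOH embryos are higher and S2-4 is the highest saline embryo, and in the lower row (Cpeb4, Tmpo, Neil3, Sox11) the EtOH embryos are lower.

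Genes of dividing cells were the marker list with most calls. Of 9 proliferation genes tested 3 fell, beside 0.865% of all genes tested, and 0 rose, with a median log2 fold change of -0.75. Kif11, a kinesin of the mitotic spindle, was at 14.0, 14.3, 16.9, 22.7 and 13.8 CPM in the saline embryos and 3.52 to 12.4 in the EtOH embryos (-1.20 ± 0.25, edgeR adjusted p = 0.0401). Diaph3, a formin of cell division, fell by 1.31 and Mki67 by 1.00. None of the 3 overlapped between groups, nor did 41 of the 93 lower called genes, beside 2.15% of all genes tested. Calls and overlap come from the same values, so this is no further result. With the batch block Kif11 was still called, and Mki67 and Diaph3 were not (edgeR adjusted p = 0.0509 and 0.0520). With counts summed per dam it was Diaph3 that was called (edgeR adjusted p = 0.0329), and Kif11 and Mki67 were not (0.0911 and 0.0792). Diaph3 was also called with nuclei thinned (edgeR adjusted p = 0.00185) and without nuclei that held a UMI of the 6 genes of other cells (0.0117). Mki67 is 1 of these 6 genes, so it was tested only with nuclei thinned (edgeR adjusted p = 0.0963), and Kif11 was tested in neither. Leaving out such nuclei removed 35.3% to 64.3% of nuclei in saline and 16.2% to 31.7% in EtOH embryos, so it changed the groups unequally. Without S2-4, 5 of 10 proliferation genes fell and 1 rose, beside 3.94% and 9.08% of all genes. These levels are low, and the 3 genes are part of the summed proliferation markers given above. Of 9 radial glia genes 1 fell, Gli3, an effector of hedgehog signalling, from 86.5 ± 24.6 to 41.4 ± 10.3 CPM, with S2-4 at 49.1 in the EtOH range, and it was not called with the batch block (edgeR adjusted p = 0.0511). With all nuclei that held a UMI of the 6 genes of other cells left out, 47 genes were called, 29 of them among the 208.

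No interneuron, Cajal-Retzius or subplate gene was called, and most of their values lay below 0, beside 48.8% of all genes tested. At 1.94% of all genes called, 0 or 1 call in lists of this size is near the share over all genes. The 8 interneuron genes tested had a median of -0.59 with 8 below 0, the 4 Cajal-Retzius genes -0.66 with 4 below 0, and the 7 subplate genes -0.66 with 6 below 0. Of 11 ventrolateral pallium genes 1 fell, the transcription cofactor Dach1, from 305 ± 85.9 to 142 ± 31.9 CPM, where S2-4 at 179 lay in the EtOH range, and it was not called with the batch block (edgeR adjusted p = 0.0604). The 9 PN genes, 11 upper layer genes and 10 deep layer genes tested had 0 calls and medians of 0.04, 0.06 and -0.07. The 9 hippocampal, 6 intermediate progenitor, 4 striatal, 6 thalamic and 4 non-neural genes tested had 0 calls as well, with medians of -0.26, -0.32, -0.12, -0.36 and 0.15. Without S2-4 these lists had from 0 to 3 calls each, beside 13% of all genes called, 9.08% higher and 3.94% lower. The most were in the subplate list with 2 of 7 lower and 1 higher, and there were 0 in the interneuron, hippocampal, striatal, thalamic and non-neural lists.

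Signalling and RNA lists had from 1 to 3 calls each, and every call in them was lost with the batch block. Of 26 Wnt genes 3 fell, beside 0.865% of all genes tested, with a list median of -0.10: Tcf7l1, a repressor of Wnt targets, by 1.23, Sfrp1, a secreted antagonist, by 0.69, and Fzd3, a Frizzled receptor of axon guidance, by 0.35. With the block the edgeR adjusted p was 0.0642, 0.0509 and 0.0573 for these 3 genes. Tcf7l1 was at 20.9, 20.02, 17.3, 27.0 and 12.2 CPM in the saline embryos and 2.10 to 11.96 in the EtOH embryos, with S2-4 just above them. Of 13 Notch genes 1 fell, Rbpj, the DNA-binding factor of the pathway, from 146 ± 22.3 to 105 ± 9.56 CPM (-0.51 ± 0.10, edgeR adjusted p = 0.0401), and all 13 lay below 0, beside 48.8% of all genes, with a median of -0.25. Of 20 splicing regulators 2 fell, Qk by 0.67 and Mbnl2 by 0.40, and the median was -0.13. Of 14 long noncoding genes 1 rose, Snhg11, from 54.9 ± 6.43 to 85.9 ± 20.5 CPM. With the block the edgeR adjusted p was 0.0520 for Rbpj, 0.0637 for Qk, 0.0575 for Mbnl2 and 0.0573 for Snhg11. Counts of 1 or 2 calls in the Notch, splicing and long noncoding lists are few to set against 0.865% lower and 1.07% higher over all genes. Without S2-4, 7 of 27 Wnt genes, 4 of 13 Notch genes and 2 of 20 splicing regulators fell, beside 3.94% of all genes, and 1 Wnt gene and 5 of 14 long noncoding genes rose, beside 9.08%.

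Synaptic and axonal lists had 0 calls each, which at 1.94% of all genes tested is no sign that they differ from other genes. This held for 16 ionotropic glutamate receptor genes, 13 GABA receptor genes, 20 presynaptic, 17 postsynaptic, 22 ion channel, 31 adhesion and 26 synaptic adhesion genes, with medians between -0.10 and 0.02. It also held for 25 axon guidance, 14 Eph and ephrin and 20 microtubule and migration genes, with medians of -0.08, 0.03 and -0.05. Among their highest members, the AMPA receptor gene Gria2 was at 2327 ± 255 CPM, the receptor phosphatase gene Ptprd at 15008 ± 835 and the Eph receptor genes Epha5 and Epha3 at 4989 ± 423 and 3409 ± 496. The 4 tested genes of the Fam19a family were all above 0, with a median of 0.23, and 0 were called. Without S2-4 these lists had from 0 to 2 calls each, beside 13% of all genes.

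Stress and ethanol lists had 0 calls too, and for lists of this size the same holds. They were 12 heat shock genes, 11 apoptosis and p53 genes, 11 oxidative stress genes, 5 immediate early genes and 6 genes of ethanol metabolism, with medians of -0.06, -0.10, 0.17, 0.02 and -0.06. The alcohol dehydrogenase gene Adh1 had no UMI in Cluster 8, and Adh5 was at 11.1 ± 3.15 CPM. Without S2-4, 1 of 12 heat shock genes, Hsp90aa1, was called and no gene of the other 4 lists was, beside 13% of all genes, so these counts do not set the lists apart.

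The EtOH effect in Cluster 8 was next set against that in the 3 largest other PN clusters of the same embryos, by the interaction of treatment and cluster (edgeR, adjusted p under 0.05). Against Cluster 1, 2 of 11585 genes (0.0173%) differed, and against Cluster 9, 12 of 10657 (0.113%). In all of these the log2 effect was higher in Cluster 8. Over all genes tested the median difference was -0.0016 for Cluster 1 and 0.017 for Cluster 9. Against Cluster 4, 0 of 11834 (0%) differed, with 691 at an unadjusted p under 0.05 and 0 also with RLE size factors. Without S2-4 these counts were 30, 1 and 68 for Clusters 1, 4 and 9. RNA of other cells was compared between the groups in Cluster 8 only. Its part in the differences from Clusters 1 and 9 was not tested. The genes nearest to a difference from Cluster 4 were Cemip, a hyaluronan-binding protein (1.19 ± 0.22, edgeR adjusted p = 0.132), and Efhb, Wwc1 and Sema3c at an edgeR adjusted p of 0.178.

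Camk2d, a subunit of calcium/calmodulin-dependent kinase II, was the gene that differed most from Cluster 1. It was at 242, 277, 289, 296 and 215 CPM in the saline embryos and 205 to 301 in the EtOH embryos of Cluster 8, overlapping fully, and at 32.7 ± 8.25 and 13.6 ± 1.77 in Cluster 1. The log2 effects differed by 1.11 ± 0.14 (edgeR adjusted p = 0.000228). Pdgfc, a platelet-derived growth factor, was at 100.2 ± 19.6 and 118 ± 10.0 CPM in Cluster 8, 93.2 ± 15.95 and 58.1 ± 14.3 in Cluster 1, and 82.7 ± 14.7 and 44.3 ± 14.7 in Cluster 9. Its effect differed by 0.88 ± 0.12 from Cluster 1 (edgeR adjusted p = 0.000331) and by 1.10 ± 0.17 from Cluster 9 (edgeR adjusted p = 0.00751).

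The other named genes that differed from Cluster 9 were at higher levels in Cluster 8 than in Cluster 9 in both groups. Ndst4, a heparan sulfate sulfotransferase, was at 77.0 ± 33.5 and 99.2 ± 78.1 CPM in Cluster 8 and 16.8 ± 8.69 and 4.26 ± 2.36 in Cluster 9 (difference 2.04 ± 0.31, edgeR adjusted p = 0.00311). Samd12 was at 260 ± 25.6 and 272 ± 24.99 CPM, and 73.8 ± 3.97 and 47.9 ± 7.35 in Cluster 9 (0.67 ± 0.12, edgeR adjusted p = 0.0107). Gm16083, antisense to Cd55, differed by 2.56 ± 0.46 (edgeR adjusted p = 0.0107). It was at 33.8 ± 2.81 and 42.9 ± 10.5 CPM in Cluster 8, and at 6.04 ± 1.38 and 1.23 ± 0.971 in Cluster 9. In Cluster 9 it had 0 CPM in E1-1 and E2-4, so its difference rests on few counts there. Gm20642, antisense to the neuregulin gene Nrg3, was at 55.5, 50.3, 44.7, 44.5 and 177 CPM in the saline embryos of Cluster 8 and 162 to 221 in the EtOH embryos. S2-4 again lay with the EtOH embryos (difference from Cluster 9 1.56 ± 0.27, edgeR adjusted p = 0.00751).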

How the data were processed

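Nuclei of single embryonic cortices were sequenced with 10X 3′ chemistry. Reads were aligned and counted by the authors with Cell Ranger on mm10, and nuclei and genes were filtered, integrated with Harmony and clustered in Seurat. The deposited tables hold raw UMI counts of 23513 genes, 1 table per embryo and cluster. Embryo S2-3 of the saline group was not analysed here, as no counts of it were available. The paper left out 1 saline sample, which it does not name, because its nuclei were spread over the clusters unlike those of the others.

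Cluster 8 and the gene lists were chosen with earlier results of these data known. Counts were summed per embryo and tested with edgeR 4.0.16 (robust quasi-likelihood fit, TMM, filterByExpr, Benjamini-Hochberg adjustment). Single values were compared by exact permutation tests over embryos. P-values take littermates as independent. No doublets were called. On simulated counts for EtOH against saline genes, edgeR called 85 of 98 genes changed 2-fold, 49 of 98 changed 1.5-fold and 10 of 10352 unchanged. For the interaction it called 56 of 100 genes changed 2-fold, 23 of 100 changed 1.5-fold and 1 of 10528 unchanged. The simulated embryos were independent, with no effect of litter, batch or RNA of other cells, so real recovery may differ.

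The labels' dam numbers mark a shared batch, so batch was used as the replicate block. The deviations of the saline and EtOH embryos of a batch from their group means correlated at -0.00865. Named genes were the label markers, the first 10 PN 1 markers, the highest or absent markers of each list, up to 10 called genes per direction by p, called list members or else the highest, the 10 leading and 10 most variable genes, and up to 5 interaction genes per direction. Genes of the Fam19a1 division were chosen after their values were seen. Alternatives were DESeq2 1.42.0, limma 3.58.1 (voom, dam as random block), RLE factors, other filters, thinning, sums per dam, single batches and leaving out nuclei or embryos. Results for 1 gene are not reported here.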

Additional observations from a re-analysis of the deposited data

Results flagged for a closer look

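In 112 groups of embryos examined for a single embryo far from the others, 7 had one, and chance flags about 1 in 20 groups. E1-1 had 4065 UMIs per Cluster 8 nucleus, where the next EtOH embryo had 6220. E2-3 had the lowest summed level of non-neural markers of the EtOH embryos, 33.7 CPM beside 54.8. For called genes, S2-4 stood out among saline embryos for Gm12709 at 26.3 CPM beside 15.8, and S2-1 for Cpeb4 at 180 beside 163 or less. Among EtOH embryos E2-2 stood out for Gm28375 at 74.2 CPM beside 69.9, E1-2 for Trip11 at 97.1 beside 87.7, and E2-3 for Fzd3 at 98.9 beside 128.

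The EtOH effect differed between Cluster 8 and Cluster 1 for 2 genes and between Cluster 8 and Cluster 9 for 12 by the interaction test described above, of which the named ones follow. The log2 effect in Cluster 8 exceeded that in Cluster 1 by 1.11 for Camk2d and 0.88 for Pdgfc. It exceeded that in Cluster 9 by 2.04 for Ndst4, 1.10 for Pdgfc, 1.56 for Gm20642, 2.56 for Gm16083 and 0.67 for Samd12. None of these genes was called in Cluster 8 itself. Their log2 effects there were -0.16 for Camk2d, 0.19 for Pdgfc, 0.21 for Ndst4, 1.34 for Gm20642, 0.29 for Gm16083 and 0.02 for Samd12. Camk2d, Pdgfc, Ndst4 and Samd12 were lower after EtOH in the other cluster.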

How the results depend on the processing

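The share of Cluster 8 among nuclei kept its direction in all settings run. Leaving out 1 embryo gave differences of 0.911 to 1.58 percentage points, and the exact permutation p passed 0.05 only without E1-1 (1.58, p = 0.0397). The difference in UMIs per nucleus kept its direction and its side of the threshold in all settings run.

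The number of genes called between EtOH and saline embryos, 208, moved to 429 with DESeq2, 873 with no filter on low counts, 358 with limma voom and the dam as a random block, 8 with counts summed per dam, 44 with nuclei thinned, 47 without nuclei that hold markers of other cells and 4 in batch 2 alone, and it was 296 in batch 1 alone, of which 57 were among the 208. The voom fit estimated a correlation within dams of 0.00577, so it took littermates as nearly independent. Of the 8 calls with counts summed per dam, 4 were among the 208. With the replicate block (batch) the number was 18. The 18 were all among the 208, and the permutation tests with labels exchanged within batches kept their side of the threshold. Leaving out 1 embryo gave 0 to 1412: 0 without S1-1, S2-1 or E2-2 (edgeR, with 1820, 1925 and 2036 genes at an unadjusted p under 0.05), 6 without S1-2, 9 without S2-2, 1412 without S2-4, 100 without E1-1, 11 without E1-2 or E2-1, 5 without E2-3 and 12 without E2-4. S2-4 had been set apart on these same counts, so the 1412 is no independent check. The cause of the spread was not tested. No called gene changed direction in any setting in which it was tested. The 32 named called genes kept their call in 235 of 373 values from other settings and in 102 of 352 values with 1 embryo left out.

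Genes whose effect differed from Clusters 1, 4 and 9, which were 2, 0 and 12, became 78, 60 and 137 with no filter on low counts and 26, 1 and 31 with nuclei thinned. Leaving out 1 embryo gave 2 to 30, 0 to 4 and 4 to 68, the highest for Clusters 1 and 9 without S2-4. With RLE size factors they were 2, 0 and 8. Only 154 nuclei of E1-1 were in Cluster 8, so low genes rest on few counts there.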
